A study of Arabidopsis thaliana with 6 samples.

Results

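The genes that flank the thalianol and marneral clusters of chromosome 5 were examined in whole roots of *ninja-1* and WT seedlings, to ask whether the higher transcript levels of the cluster genes in *ninja-1* extended past the cluster borders. Members were chosen by position. They are the genes with AGI codes from AT5G47500 to AT5G48500, around the thalianol cluster (AT5G47950 to AT5G48010), and from AT5G42100 to AT5G43100, around the marneral cluster (AT5G42580 to AT5G42600), without the clusters themselves. *XTH20* (AT5G48070) and *AOS* (AT5G42650) lie inside these windows but were left out by the rule, which was written with their changes known, so their values are given separately. A probe set assigned to a single gene was at hand for 105 of the 230 annotated genes so defined, 49 around the thalianol cluster (22 on the side of the lower AGI codes, here the left, and 27 on the right) and 56 around the marneral cluster (25 left and 31 right). No member had a second probe set. The other 125 genes were not analysed here. The 105 members stand among 13286 genes named in this way and 22746 probe sets tested.

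WT was accession Col-0 carrying the *JAZ10pro-GUSPlus* (*JGP*) reporter, and *ninja-1* was a loss-of-function allele of *NINJA* with the same reporter in the same accession. Both were grown without treatment under aseptic conditions, and roots were taken from 5-day-old seedlings. Each genotype had 3 biological replicates of 120 pooled roots, and each replicate had 1 Affymetrix ATH1 array. A single mutant allele was measured, and whole roots were not divided into tissues.

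Plants keep the genes for some specialised metabolites side by side in the genome, although the enzymes they encode belong to unrelated families. In such a cluster an oxidosqualene cyclase makes a triterpene backbone, and neighbouring cytochromes P450 and acyl-transferases modify it. The thalianol and marneral clusters of *Arabidopsis* are active mainly in roots, where their products are made. NINJA is an adaptor that links the JAZ repressors of jasmonate (JA) signalling to the co-repressor TOPLESS, which recruits enzymes that modify chromatin. Genes next to such a cluster serve here as an outer reference for changes inside it.

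All levels are log2 values, which the authors had computed with GCRMA. Array medians ran from 5.95 to 6.03. On each array 26.5% to 27.0% of probe sets sat within 0.05 of the lowest value, 2.11, a floor from which a rise can be seen but not a fall. *NINJA* itself, assigned to its probe set by a match of values, was 9.60, 9.52 and 9.72 on the WT arrays and 7.30, 7.05 and 7.13 on those of *ninja-1*. Of 9 root marker genes only *EXPA7*, an expansin gene of root hairs, had a named probe set. It lay at 8.76 ± 0.09 (SD, n = 3) in WT and 8.91 ± 0.08 in *ninja-1*. The 8 markers of green shoot tissue had none, so shoot RNA was not assessed. In whole roots, a lower level of a transcript can come from fewer cells of a type or from less RNA per cell, and these cannot be told apart.

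The rise of the thalianol genes was not seen in the nearest measured gene on either side. AT5G47950, an acyl-transferase gene that forms the left border of the cluster, was 8.45, 8.55 and 8.58 in WT and 10.01, 9.96 and 10.18 in *ninja-1*. The difference of 1.52 on the log2 scale had a standard error of 0.07 (adjusted p = 0.00759 from limma). Its left neighbour AT5G47940, the next gene along the chromosome, was 7.34, 7.45 and 7.68 in WT and 7.04, 7.02 and 7.54 in *ninja-1*. The genotypes overlapped, and the log2 change was −0.29 (95% interval −0.79 to 0.22, adjusted p = 0.658).

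The following genes to the left gave the same picture. AT5G47930, 2 genes from the border, was 12.81, 13.07 and 12.73 in WT and 12.82, 12.86 and 13.09 in *ninja-1* (log2 change 0.05, 95% interval −0.28 to 0.39, adjusted p = 1). AT5G47920, 3 genes from the border, was 5.60, 5.64 and 5.54 in WT and 6.05, 5.60 and 5.64 in *ninja-1* (log2 change 0.17, 95% interval −0.21 to 0.55, adjusted p = 0.760). In both the arrays of the genotypes overlapped.

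At the right border the step was steeper. *THAS1* (AT5G48010), the thalianol synthase gene that ends the cluster, was 6.27, 6.28 and 6.01 in WT and 10.72, 10.98 and 10.84 in *ninja-1*. AT5G48020, the adjacent gene, was 9.19, 9.18 and 9.04 in WT and 9.32, 9.06 and 9.03 in *ninja-1*, with a change of 0.00 (95% interval −0.26 to 0.26, adjusted p = 1), beside 4.66 (standard error 0.11, adjusted p = 0.00179) for *THAS1*. The next measured genes to the right were dim. AT5G48050 stayed at the floor on all 6 arrays, and AT5G48060, 5 genes from the border, was 2.86, 2.74 and 2.98 in WT and 3.21, 3.04 and 2.98 in *ninja-1* (log2 change 0.21, adjusted p = 0.464), values at which background limits the size of any change.

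A gene inside the thalianol interval also lacked the rise. AT5G47970 lies between the acyl-transferase genes AT5G47950 and AT5G47980 and is not counted among the members. It was 6.91, 7.05 and 7.10 in WT and 6.83, 6.98 and 6.97 in *ninja-1*, a log2 change of −0.09 (95% interval −0.29 to 0.10, adjusted p = 0.736). AT5G47980 was 7.92, 8.22 and 8.11 in WT and 9.97, 9.85 and 10.14 in *ninja-1* (log2 change 1.90, standard error 0.12, adjusted p = 0.0112). With any 1 array left out, AT5G47980 passed the adjusted p in 1 of 6 fits and AT5G47950 in 4 of 6, with log2 changes that stayed between 1.82 and 1.97 and between 1.46 and 1.57. *THAD1* (AT5G47990), a desaturase gene, and *THAH1* (AT5G48000), a hydroxylase gene, had log2 changes of 3.31 and 5.87, and passed in all 6. In the fits with 1 array left out, 0.29% to 0.945% of all probe sets passed, against 1.18% with every array.

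Around the marneral cluster the rise was likewise not seen in the nearest measured members, some of them at the floor or with a wide interval. *CYP705A12* (AT5G42580), the cytochrome P450 gene at the left border, was 2.79, 2.62 and 2.38 in WT, near the floor, and 7.13, 6.90 and 7.12 in *ninja-1*. AT5G42570, the adjacent gene, was 9.34, 9.21 and 9.32 in WT and 9.37, 9.37 and 9.26 in *ninja-1* (log2 change 0.04, 95% interval −0.10 to 0.18, adjusted p = 0.853). Its narrow interval leaves room for a rise of at most 0.18 on the log2 scale. AT5G42560, 3 genes from the border, had a log2 change of −0.02 (95% interval −0.22 to 0.17, adjusted p = 1), and AT5G42490, the third measured gene on this side, was at the floor on all arrays.

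To the right of the marneral cluster the border gene itself, AT5G42600, and its neighbour AT5G42610 were not analysed here. *MRO* (AT5G42590), the marneral oxidase gene inside the cluster, was 7.36, 7.34 and 6.93 in WT and 9.60, 9.51 and 9.77 in *ninja-1* (log2 change 2.42, standard error 0.15, adjusted p = 0.0114), a gene that passed in 2 of the 6 fits with 1 array left out. AT5G42620, 2 genes past the border, was 5.07, 4.71 and 5.44 in WT and 5.12, 5.27 and 5.37 in *ninja-1*. The WT arrays alone spread over a wider range than the difference between the genotypes, and the log2 change of 0.17 (95% interval −0.39 to 0.74, adjusted p = 0.848) was the least precise at a border. AT5G42640 was at the floor, and AT5G42660, 8 genes past the border, was 5.09, 5.29 and 5.36 in WT and 5.49, 5.18 and 5.36 in *ninja-1* (log2 change 0.10, 95% interval −0.20 to 0.40, adjusted p = 0.829).

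**Figure D1:**
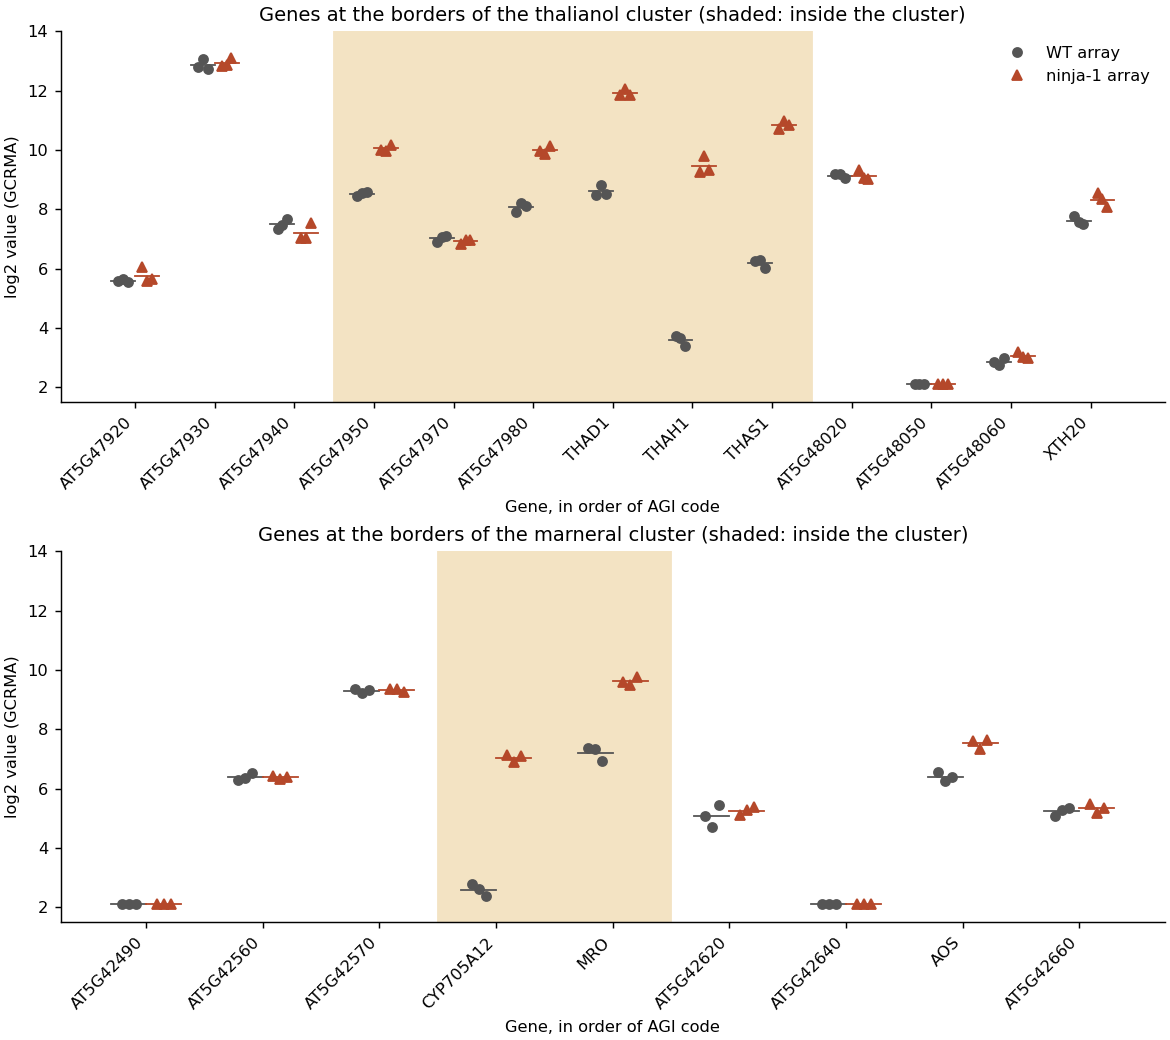
Log2 values (GCRMA) on each array for the 3 measured flanking genes nearest to each border, for the cluster genes with a probe set (shaded) and for *XTH20* and *AOS*; circles are WT arrays, triangles *ninja-1* arrays, and lines the means of 3 arrays. In the flanking genes the arrays of the genotypes overlap or sit together at the floor of 2.11, while every shaded gene but AT5G47970 is higher on all *ninja-1* arrays.

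*NINJA*, *THAD1*, *THAH1*, *THAS1*, *CYP705A12*, *MRO* and *AOS* have no probe set in the array annotation used here. For each, a supplementary table of the study lists a fold change and an adjusted p, and exactly 1 probe set came close to both, so their changes follow from the match and serve only as a reference. For 59 genes in that table with a named probe set, this procedure gave exactly 1 candidate for 48, and it was right for all 48.

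Over all flanking genes, none was called higher and none lower in *ninja-1*, where a call needs both a 2-fold change and an adjusted p below 0.05. Of all probe sets, 0.492% were called higher and 0.0484% lower, so that the array-wide share would also amount to less than 1 gene among 105, and the intervals are more informative than the count. The 95% interval of the log2 change lay between −1 and 1 for all 105 members, as for 96.0% of all probe sets. With 1 array left out this held for 100 to 105 members. The upper bound then reached 1 for AT5G47740 without any 1 of the *ninja-1* replicates and for AT5G42620 without *ninja-1* replicate 1. The lower bound reached −1 for AT5G47940 and AT5G43040 without WT replicate 1 or 2. It did so for AT5G48430 and AT5G48400 without replicate 1 or 2 of either genotype, and for AT5G48400 also without *ninja-1* replicate 3. For AT5G48360 it did so without WT replicate 1 or *ninja-1* replicate 2. The 105 members include 23 within 0.05 of the floor on all 6 arrays (21.9%, against 24.7% of all probe sets), for which no signal above the floor was measured and the interval has no meaning. Of the other 82 members, 69 had a log2 value above 4 on at least 3 arrays and 13 were dimmer. These 69 are 65.7% of the 105 members, against 62.6% of all probe sets.

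Among the 69 brighter members, log2 changes ran from −0.65 (AT5G48430) to 0.59 (AT5G47740), with a median of −0.05 and quartiles of −0.17 and 0.05. Over the 14230 probe sets with such values the median was −0.02 and the quartiles were −0.13 and 0.08. The highest upper bound of any interval was 0.92, for AT5G47740, and the lowest lower bound was −0.98, for AT5G48430. A change of at least 1.5-fold was measured in these 2 members alone, or 1.9% of 105, against 3.42% of all probe sets. The share of the members does not count *AOS* (2.18-fold) and *XTH20* (1.65-fold), which the rule left out with their changes known. Cluster genes other than AT5G47970 lay outside the range of the members.

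**Figure D2:**
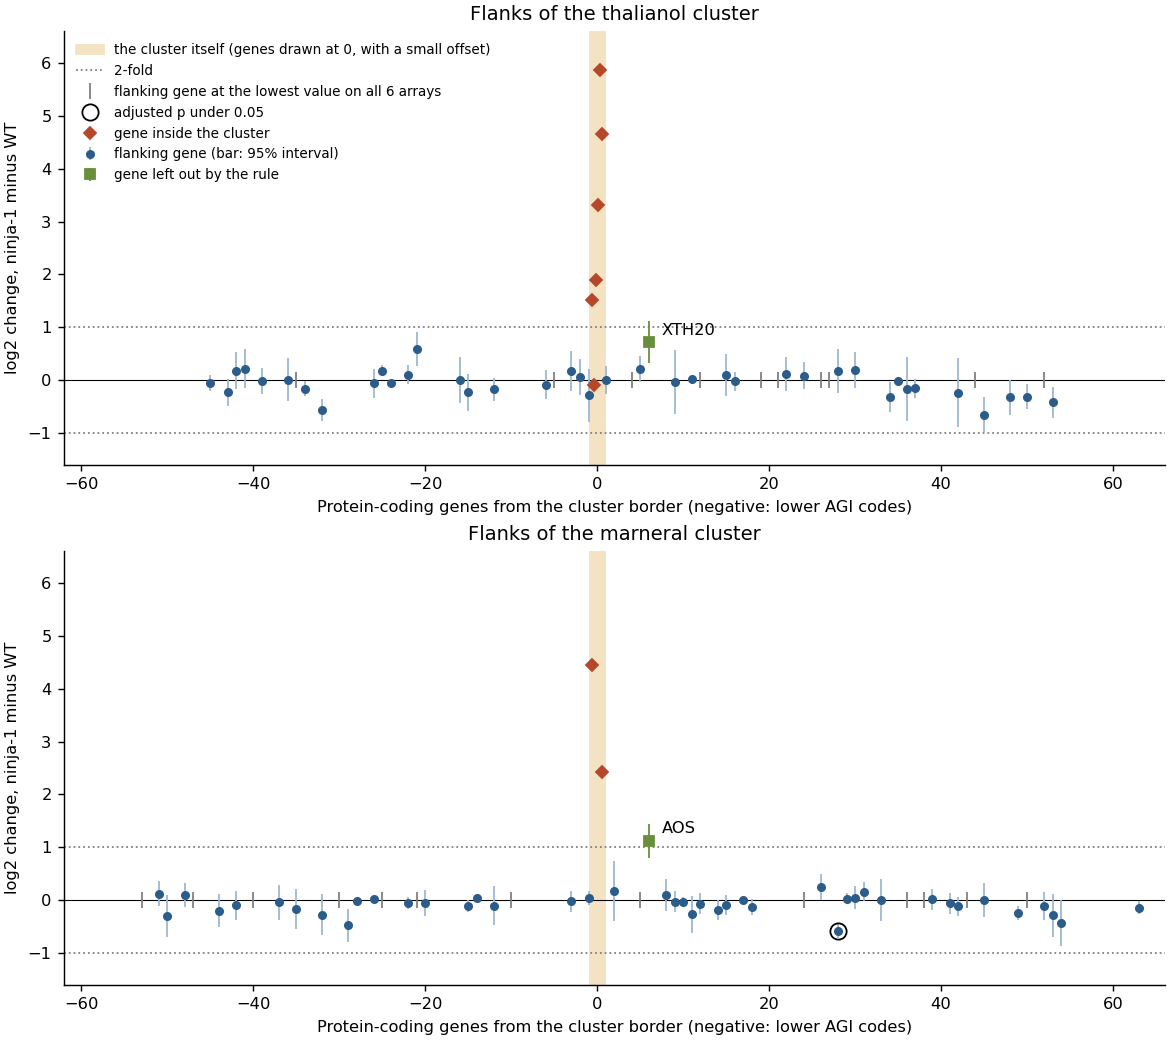
Log2 change (*ninja-1* minus WT) of each gene against its distance from the cluster border, with 95% intervals from limma. The distance is counted in protein-coding genes and is 1 for an adjacent gene. Diamonds are genes inside the clusters and squares the genes left out by the rule. The flanking genes stay between −0.65 and 0.59, and cluster genes other than AT5G47970 lie between 1.52 and 5.87.

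**Figure D3:**
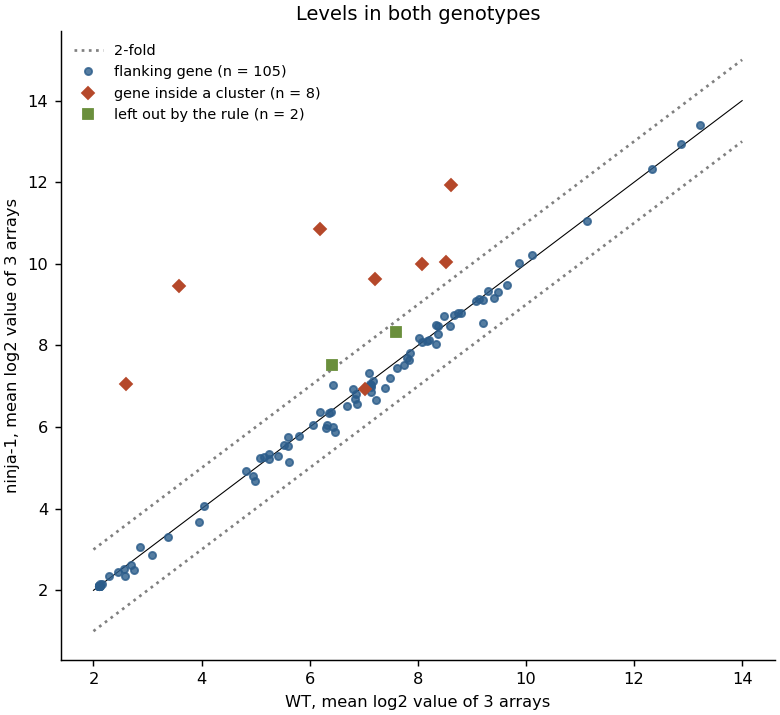
Mean log2 value in WT (horizontal axis) and in *ninja-1* (vertical axis) for the 105 flanking genes, the genes inside the clusters and the genes left out by the rule, each the mean of 3 arrays; dotted lines mark a 2-fold difference. All 105 flanking genes lie within the dotted lines, from the floor of 2.11 up to 13.4.

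The genes that the rule left out were both higher in *ninja-1* without overlap, and lie nearer to a border than any member of which this is true. *AOS*, which encodes allene oxide synthase of JA synthesis and lies 6 genes to the right of the marneral cluster, was 6.56, 6.27 and 6.39 in WT and 7.62, 7.35 and 7.62 in *ninja-1*. The log2 change of 1.12 (adjusted p = 0.0436, standard error 0.12) passed in none of the 6 fits with 1 array left out. In those fits fewer of all probe sets passed than in the main fit. *XTH20*, an enzyme gene of xyloglucan remodelling in the cell wall, lies 6 genes to the right of the thalianol cluster and was 7.76, 7.57 and 7.49 in WT and 8.53, 8.36 and 8.09 in *ninja-1*. All its *ninja-1* arrays lay above all WT arrays, but the log2 change of 0.72 (standard error 0.15, 95% interval 0.33 to 1.11) did not pass the adjusted p (0.144). With both put back, 1 of 107 genes was called higher.

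In the measured genes around *AOS* and *XTH20* the genotypes overlapped. AT5G42640 and AT5G48050 were at the floor, AT5G48060 was dim, and the intervals of AT5G42620 and AT5G48110 left room for a rise of up to 0.74 and 0.57 on the log2 scale. Left of *AOS* lie AT5G42620 and AT5G42640, and right of it AT5G42660, AT5G42670 (log2 change −0.03, adjusted p = 1) and AT5G42680 (−0.04, adjusted p = 0.771), the last of them close to the floor at 2.52 to 2.63. Left of *XTH20* lie AT5G48020, AT5G48050 and AT5G48060, and on its right the next measured gene was AT5G48110, 9 genes from the border. AT5G48110 was 6.89, 7.31 and 7.33 in WT and 6.80, 7.18 and 7.44 in *ninja-1*, so that the genotypes overlapped and a wide interval remained (log2 change −0.03, 95% interval −0.64 to 0.57, adjusted p = 1).

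Among the members, the size of the changes did not fall with distance from the clusters. *AOS* and *XTH20*, both 6 genes from a border with log2 changes of 1.12 and 0.72, were left out by the rule and are not counted here. The 11 brighter members up to 10 genes from a border had a median log2 change of 0.00, from −0.29 to 0.17, and an upper bound of at most 0.74. The 11 members at 11 to 20 genes had a median of −0.11, the 28 at 21 to 40 genes one of −0.01 and the 19 at 41 to 63 genes one of −0.14. Across the 69 genes, which share arrays and are not independent, Spearman's rho with the distance was −0.30 for the log2 change and 0.31 for its absolute size. The larger changes of the members lay 21 or more genes from a border, but both left-out genes, at 6 genes, exceeded them in size. The rule removed these genes with their changes known, so a trend with distance cannot be read from the members. At 21 to 40 genes the changes ran from −0.58 to 0.59. At 41 to 63 genes they ran from −0.65 to 0.22, with 14 of the 19 brighter members lower and 5 higher. Of all 14230 probe sets this bright, 7858 were lower and 6281 higher.

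One member passed the adjusted p. AT5G42830 lies 28 genes to the right of the marneral cluster. It was 6.43, 6.58 and 6.40 in WT and 5.92, 5.88 and 5.88 in *ninja-1*. All *ninja-1* arrays lay below all WT arrays, and the difference of −0.58 on the log2 scale, a 1.49-fold fall, had a standard error of 0.06 (adjusted p = 0.0356 from limma). Over all probe sets 1.18% passed the adjusted p, beside 0.952% of the members. AT5G42830 passed in 1 of the 6 fits with 1 array left out (without WT replicate 2), where adjusted p ran from 0.0303 to 0.157. It did not pass after a second quantile normalization (adjusted p = 0.0546) or with a replicate block (adjusted p = 0.188). Of all probe sets, 0.29% to 0.945% passed with 1 array left out, and none with the replicate block.

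The other members with small unadjusted p did not pass the adjustment. At an unadjusted p under 0.05 were 13 members (12.4%, against 13.0% of all probe sets), 2 with higher and 11 with lower values in *ninja-1*. Over all probe sets the split was 5.73% higher and 7.23% lower. AT5G48430, 45 genes to the right of the thalianol cluster, was 9.10, 9.17 and 9.33 in WT and 8.58, 8.71 and 8.34 in *ninja-1* (log2 change −0.65, standard error 0.12, adjusted p = 0.128). AT5G47635, 32 genes to the left of that cluster, was 7.30, 7.13 and 7.28 in WT and 6.64, 6.78 and 6.59 in *ninja-1* (log2 change −0.57, standard error 0.08, adjusted p = 0.0673). In both the genotypes did not overlap. With dim probe sets left out of the fit, 5 members passed the adjusted p, AT5G48430, AT5G47635, AT5G47740 and AT5G42310 besides AT5G42830. These 5 of 69 (7.25%) stood beside 7.03% of all probe sets in that fit.

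AT5G47740, 21 genes to the left of the thalianol cluster, had the highest log2 change of the members. It was 6.67, 6.33 and 6.29 in WT and 7.08, 7.05 and 6.94 in *ninja-1* (log2 change 0.59, standard error 0.12, adjusted p = 0.147). AT5G47700, 25 genes to the left, had the highest array value of the members. It was 13.21, 13.21 and 13.22 in WT and 13.32, 13.45 and 13.41 in *ninja-1*, a small difference without overlap (log2 change 0.18, standard error 0.04, adjusted p = 0.159). For the adjacent genes, the log2 change of AT5G47730 was 0.10 (adjusted p = 0.654) beside AT5G47740, and that of AT5G47710 was −0.06 (adjusted p = 0.473) beside AT5G47700. In both of these the genotypes overlapped.

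Around the marneral cluster, *UBC18*, a ubiquitin-conjugating enzyme gene 49 genes to the right, was 9.39, 9.46 and 9.36 in WT and 9.20, 9.08 and 9.20 in *ninja-1* (log2 change −0.24, standard error 0.05, adjusted p = 0.135). AT5G42310, 29 genes to the left, was 5.78, 5.46 and 5.63 in WT and 5.11, 5.03 and 5.30 in *ninja-1* (log2 change −0.47, standard error 0.12, adjusted p = 0.210). Both had lower values on all *ninja-1* arrays.

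**Figure D4:**
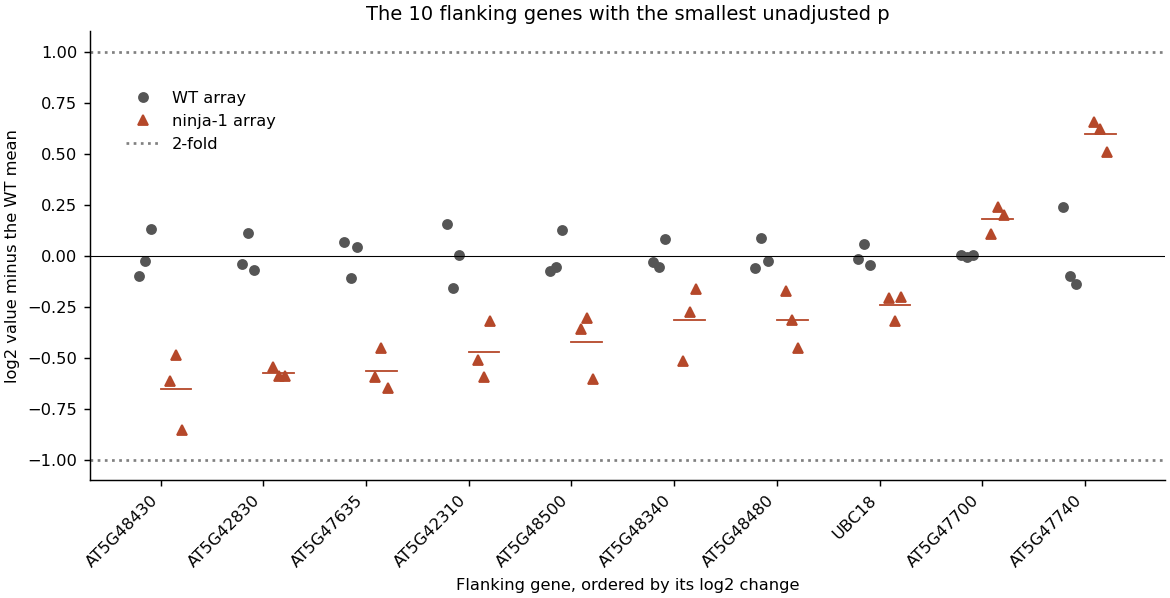
Log2 value of each array minus the WT mean of the gene, for the 10 flanking genes with the smallest unadjusted p; circles are WT arrays, triangles *ninja-1* arrays, and dotted lines mark a 2-fold difference. In each gene the genotypes do not overlap, and *ninja-1* is lower in 8 of the 10 and higher in AT5G47700 and AT5G47740.

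At the outer end of the right thalianol flank, neighbouring members had lower values in *ninja-1*, a stretch picked out after its values had been seen and therefore given without a test. Of the 5 members from AT5G48430 to the end of the window at AT5G48500, AT5G48490 was at the floor. AT5G48460 was 6.35, 6.33 and 6.20 in WT and 6.06, 5.73 and 6.12 in *ninja-1* (log2 change −0.32), and AT5G48480 was 8.28, 8.42 and 8.31 in WT and 8.17, 8.02 and 7.89 (log2 change −0.31). AT5G48500 was 6.36, 6.38 and 6.56 in WT and 6.08, 6.13 and 5.83 in *ninja-1* (log2 change −0.42). With AT5G48430, 4 members had *ninja-1* arrays that all lay below WT, with adjusted p from 0.128 to 0.397. Over the whole array, 10.1% of probe sets were lower in *ninja-1* without overlap. AT5G48420, next to AT5G48430 on the side of the cluster, was at the floor.

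In all, the genotypes did not overlap in 22 of 105 members (21.0%, against 17.8% of all probe sets), with *ninja-1* higher in 4 and lower in 18. For all probe sets these shares were 7.75% higher and 10.1% lower. The 18 lower members lay in all 4 flanks, but unevenly. Around the marneral cluster 2 were on the left (8.0% of that flank) and 7 on the right (22.6%). Around the thalianol cluster 3 were on the left (13.6%) and 6 on the right (22.2%). Within 20 genes of a border it was 3 of 35 members (8.57%). Whether the split into higher and lower members differs from that of the array was not tested.

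Several of the members at the floor are genes known to respond to stimuli. *CML37*, a calmodulin-like gene that responds to wounding and JA, lies 21 genes to the left of the marneral cluster and was at 2.11 on all 6 arrays. So were *COR27*, a cold-regulated gene of the clock, and *DFR*, for dihydroflavonol reductase of anthocyanin synthesis. The ubiquitin ligase gene *PUB15* and the serine carboxypeptidase-like gene *scpl41* were at the floor too, while *scpl42*, from the same family, was measured at 5.81 ± 0.22 (SD, n = 3) in WT and 5.77 ± 0.06 in *ninja-1* (log2 change −0.04, adjusted p = 1).

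For other members with a gene symbol, all above the floor, no difference passed the test. *THO5*, for a subunit of the complex that couples transcription to mRNA export, was 8.07 ± 0.07 (SD, n = 3) in WT and 8.09 ± 0.12 in *ninja-1* (log2 change 0.02, adjusted p = 1). *SPP*, for the stromal processing peptidase that trims proteins imported into plastids, was 7.86 ± 0.08 and 7.81 ± 0.14 (log2 change −0.05, adjusted p = 0.986). The splicing factor gene *U2AF35B* was 8.50, 8.48 and 8.50 in WT and 8.93, 8.65 and 8.63 in *ninja-1*, higher on all arrays without passing the test (log2 change 0.24, adjusted p = 0.397). *Mfl1*, for a plastid carrier related to mitoferrins, had a difference of 0.12 on the log2 scale (adjusted p = 0.699), and *SLY2*, an F-box gene of gibberellin signalling, a change of 0.10 (adjusted p = 0.935).

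The lists of gene roles drawn up for the flanks held few measured members, and none of these passed the adjusted p. *AOS*, listed under defence (log2 change 1.12, adjusted p = 0.0436 from limma), and *XTH20*, listed under cell wall (0.72, adjusted p = 0.144), were left out by the rule and are not counted here. The 4 measured members of defence and stress signalling had log2 changes from −0.16 to 0.22, and among them were *CML37* and *COR27* at the floor. For the 2 measured genes listed under ribosome and proteasome, AT5G47930 and AT5G47700, the changes were 0.05 and 0.18. The 1 measured member listed under cell wall, AT5G42720, had a log2 change of −0.19 (adjusted p = 0.371), the 1 under terpenoid enzymes was AT5G48110, and the 2 measured members listed as transcription factors were at or near the floor. Of 27 listed genes for isoprenoid precursors, squalene and oxidosqualene cyclases, some of them in the windows, 2 had a named probe set. Both lie outside the flanks, AT1G31910 (log2 change −0.09, adjusted p = 0.793) and AT3G54250 (log2 change −0.05, adjusted p = 0.333).

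Values at the ends of the windows are given as a description, since several of these genes were too dim to compare. AT5G47510 and AT5G48500, the outermost thalianol members, had log2 changes of −0.06 and −0.42, and the first named genes beyond them, AT5G47490 and AT5G48530, of −0.11 and −0.04. AT5G48530 lay near the floor, at 2.38 in WT and 2.33 in *ninja-1*, so that a fall there could not be seen. AT5G42110 was at the floor and AT5G43100 had a log2 change of −0.14 at the ends of the marneral window, against 0.01 for AT5G42090 and −0.04 for AT5G43120 just outside, the last of them at 2.15 and 2.11 and thus at or near the floor.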

How the data were processed

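The deposited log2 values, the output of GCRMA run in R by the authors (background correction by probe sequence, quantile normalization, summary of each probe set), were used without further normalization. No GCRMA version is given in the sources used here. The log2 scale was checked from the range of the values. Without the 64 control probe sets, 22746 remained and entered 1 limma 3.58.1 fit in R 4.3.3 (lmFit, then eBayes; a single genotype term). Tests were two-sided, and p-values were adjusted over the 22746 by Benjamini and Hochberg. Adjusted p refers to this fit where no other is named, and 95% intervals are those of limma. Calls needed an adjusted p under 0.05 and a 2-fold change, as in the study's methods. The number of arrays limits the precision.

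Probe sets were named by the platform annotation together with RefSeq symbols (TAIR10.1), a table that also gave the order of protein-coding genes. The array values name no genome build, so no coordinates are given. The annotation gives most members a code alone. Roles of genes with a symbol are general knowledge, and the role lists were drawn up from it too. For 7 reference genes the match needed a fold change within 0.06 plus 0.5% and an adjusted p within 6e-04, limits chosen after values had been seen. Genes named in the text were those past the adjusted p, the 3 nearest to each border, the 10 with the smallest p, up to 2 per role list and the cluster genes. Others are named for their neighbourhood or their known role and were chosen after their values were seen. The members, the lists and the rule were chosen with earlier results of these data known. The list of pigment and carbohydrate enzymes held *DFR* and, wrongly, *SPP*.

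Alternatives were eBayes with trend and robust settings, median centring, a filter on dim probe sets, a second quantile normalization, a replicate block, the removal of probe sets that can bind several transcripts, another probe set per gene, a narrower window, the left-out genes put back and the removal of each array in turn. Same-numbered arrays deviated from their genotype means with correlations of 0.10, 0.05 and 0.17 over 14230 probe sets, and no source describes a pairing, so the main comparison has no block.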

Additional observations from a re-analysis of the deposited data

How the results depend on the processing

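No flanking gene was called higher or lower under any alternative tried with the rule's own members. With *AOS* put back, which was chosen after seeing the data, 1 gene was called higher (*AOS*) and 2 passed the adjusted p. The number past the adjusted p moved from 1 to 5 of 69 with the filter on dim probe sets and to 4 after median centring, adding AT5G47635, AT5G47740 and AT5G48430 in both and AT5G42310 in the first. These shares of 7.25% and 3.81% stand beside 7.03% and 3.57% of all probe sets in the same fits. It was 0 after quantile normalization, 0 with the replicate block, which left no probe set of the array past the adjusted p, and 0 among the 35 members within 20 genes of a border. With 1 array left out it was 0 to 1, while 0.29% to 0.945% of all probe sets passed in those fits. The sample numbers pair no arrays in any source. The median log2 change of the members was 0.00, −0.050 for the 69 members with a log2 value above 4 on at least 3 arrays, with the fit over these probe sets or, added after seeing the data, over all, and 0.032 after median centring. The 95% interval lay under 1 in 69 of 69 and in 35 of 35 members of the smaller sets, but with 1 array left out in 103 to 105 of 105. It lay between −1 and 1 for 104 with the replicate block. The alternative probe set per gene changed nothing, because no member has a second one. Of 342 values of 29 named members under the alternatives, 328 kept their direction or stayed unpassed, 7 lost and 7 gained the adjusted p, and none of those past it changed sign. At low signal the floor hides falls, and rises that stay below background, in the 23 members at 2.11.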
